A study of Homo sapiens with 6 samples.

Results

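The SR splicing factor genes are the 10 genes SRSF1, SRSF2, SRSF3, SRSF4, SRSF5, SRSF6, SRSF7, SRSF8, SRSF10 and SRSF11, a list taken by gene name. The deposited gene tables held all 10 of them in each library, among 28307 gene IDs, and all 10 were among the 13300 genes tested. They were measured by polyA-selected RNA-seq in the human colon adenocarcinoma cell line SW480, after lentiviral transduction and antibiotic selection. The control lines expressed the fluorescent protein Clover from a CMV promoter (Clover, n = 3), and the other lines expressed a truncated ZC3H18 protein from the same vector (Z18trunc, n = 3). ZC3H18 (Z18) is a nuclear RNA surveillance factor, and per the study's methods the lines were made in biological triplicate. All lines therefore carried a lentiviral vector, and the Z18trunc lines kept their own ZC3H18 gene beside the added copy.

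SR proteins bind exons of pre-mRNA through RNA recognition motifs and recruit the splicing machinery through a tail rich in arginine and serine, the RS domain. Kinases of the SRPK and CLK families phosphorylate that tail, which controls where SR proteins sit in the nucleus. Many SR genes limit their own level by including a cassette exon or keeping an intron, which adds a premature stop codon and sends the message to nonsense-mediated decay. In the GENCODE annotation all 10 genes had at least 1 transcript of the class nonsense-mediated decay, against 39.0% of 20046 protein-coding genes, and 8 of the 10 had a retained-intron transcript, against 48.2%. SRSF5 had 8 retained-intron transcripts and SRSF7 had 6 transcripts of the decay class, whereas SRSF6 and SRSF8 had 0 retained-intron transcripts. The gene tables give 1 abundance per gene, so productive and decay-prone messages of a gene were counted together. How reads shared with pseudogene copies of SR genes were divided is not given in the sources used here.

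The stretch of 250 bases before the annotated start is shown for SRSF5, SRSF6 and SRSF8, the 3 members with the smallest p-values below. Sequences are from RefSeq (GRCh38.p14), 5′ to 3′ on the plus strand, and capitals mark matches, on either strand, to 5 promoter motifs spelled out below the sequences. No matches overlap one another here. The windows are chr14:69766892-69767141 for SRSF5, chr20:43457646-43457895 for SRSF6 and chr11:95066627-95066876 for SRSF8.
SRSF5: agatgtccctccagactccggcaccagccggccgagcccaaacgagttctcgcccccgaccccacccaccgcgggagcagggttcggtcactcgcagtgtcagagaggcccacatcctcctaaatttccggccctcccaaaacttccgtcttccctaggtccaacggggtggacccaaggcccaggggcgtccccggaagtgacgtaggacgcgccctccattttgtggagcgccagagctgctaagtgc
SRSF6: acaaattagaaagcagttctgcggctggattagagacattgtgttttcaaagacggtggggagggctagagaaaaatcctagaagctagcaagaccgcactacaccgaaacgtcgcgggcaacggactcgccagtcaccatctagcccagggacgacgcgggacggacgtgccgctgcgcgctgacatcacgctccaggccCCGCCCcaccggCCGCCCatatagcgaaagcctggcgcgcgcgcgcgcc
SRSF8: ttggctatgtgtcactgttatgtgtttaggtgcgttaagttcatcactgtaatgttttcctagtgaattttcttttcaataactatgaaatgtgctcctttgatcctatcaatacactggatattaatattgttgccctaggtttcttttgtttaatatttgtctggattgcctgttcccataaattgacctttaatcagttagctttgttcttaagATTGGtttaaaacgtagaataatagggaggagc

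The SRSF5 and SRSF6 windows had GC contents of 64.8% and 61.6%, above the median of 58.0% over 35116 RefSeq promoter windows of the same length. The SRSF8 window had 33.6%. SRSF7, SRSF8 and SRSF11 had 2 promoter entries each, of which only the one nearest the deposited gene start was searched. The SRSF6 window held 2 copies of the GC box, written GGGCGG, which was present in 42.6% of all windows and in 3 of the 9 members searched (all but SRSF2). The SRSF8 window held 1 CCAAT box, present in 32.0% of all windows and in 2 of the 9 members. The TATA box, searched as TATAAA, was found in 1 member and in 10.7% of all windows. The E-box, with the letters CACGTG, was found in 0 members and in 6.34% of all windows. The cyclic AMP response element, searched as TGACGTCA, was also found in 0 members, against 1.65% of all windows. The SRSF5 window thus held 0 of the 5 motifs. No factor binding was measured, and these matches are a description of the letters alone.

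The libraries held 18226033 to 22463310 aligned fragments. The gene tables give abundance as TPM, a share of all transcripts that corrects for their length, and without counts, so the depth behind each gene's value is unknown. ZC3H18 was at 51.3 to 61.8 TPM in the Clover libraries and at 739 to 798 TPM in the Z18trunc libraries (adjusted p = 3.21e-05 by limma), where reads of the added and the cells' own copy were counted together. Of 15 colon epithelial markers, 9 had a mean of at least 1 TPM, among them KRT8, KRT18 and EPCAM, and KRT20, CDX1, LGR5 and CEACAM5 were listed at 0 in each library. The summed level of that list was 23672 to 25256 TPM in Clover and 23253 to 24380 TPM in Z18trunc. Of 11 markers of blood, stromal, liver and melanocytic cells, 4 had a mean of at least 1 TPM, and the list summed to 7.65 to 9.19 TPM in Clover and 8.57 to 10.4 TPM in Z18trunc. The change of EPCAM, an epithelial adhesion protein, was 0.22 on the log2 scale (adjusted p = 0.135 by limma, higher without overlap) and that of CDH1, E-cadherin, 0.27 (adjusted p = 0.209). Over the 9 markers tested, 4 changes were positive, against 68.0% of all genes tested, and the median log2 change was -0.023, against 0.11. EPCAM was the 1 marker higher without overlap, as were 30.1% of all genes. Among the other cell type markers, PTPRC (blood), PECAM1 (endothelial), DCN (stromal) and MLANA (melanocytic) were listed at 0 in each library. The 4 with a mean of at least 1 TPM were CD68, COL1A1, MITF and PMEL. Markers of blood, stromal and melanocytic cells were thus not all at 0. In bulk RNA, fewer cells of a kind and less RNA per cell cannot be told apart.

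To ask whether Z18trunc-expressing cells differed in SR gene RNA, the 10 genes were compared across the 3 Clover and 3 Z18trunc libraries. The mean was higher in Z18trunc for 9 genes and lower for SRSF1. For 7 genes (SRSF3, SRSF4, SRSF5, SRSF6, SRSF7, SRSF8 and SRSF11) all 3 Z18trunc libraries lay above all 3 Clover libraries, whereas SRSF1, SRSF2 and SRSF10 overlapped. The largest differences were at SRSF10 and SRSF5, whose mean TPM was 31.8% and 31.1% higher, followed by SRSF6 at 23.1%, SRSF11 at 20.8% and SRSF8 at 20.5%. None of the 10 genes passed limma at an adjusted p under 0.05, where 0.015% of all genes (2 of 13300) were called. At an unadjusted p under 0.05, 4 members were higher (SRSF5, SRSF6, SRSF8 and SRSF11) and 0 were lower, against 25.6% higher and 2.90% lower over all genes.

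These counts were set against the rest of the transcriptome, since the median gene was itself 0.11 higher on the log2 scale in Z18trunc. Over all genes, 30.1% lay above Clover without overlap and 68.0% had a positive log2 change, against 7 and 9 of the 10 SR genes. The median log2 change of the 10 SR genes was 0.21. Among the 5066 genes with a mean of at least 25 TPM, a background chosen after the data were seen because it covers the range of the SR genes, 23.6% did not overlap and were higher, 17.2% were higher at an unadjusted p under 0.05, and the median log2 change was 0.02. Quantile normalization, which gives each library the same distribution of values, left 6 SR genes higher without overlap, against 16.8% of all genes and 17.9% of those with at least 25 TPM. SRSF3 and SRSF4 then overlapped and SRSF2 no longer did. On that scale 9 SR genes had a positive change, against 48.9% of all genes, 3 passed an unadjusted p of 0.05 as higher (SRSF5, SRSF6 and SRSF8), against 12.8%, and the median changes were 0.14 for the SR genes and -0.006 for all genes.

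**Figure D1:**
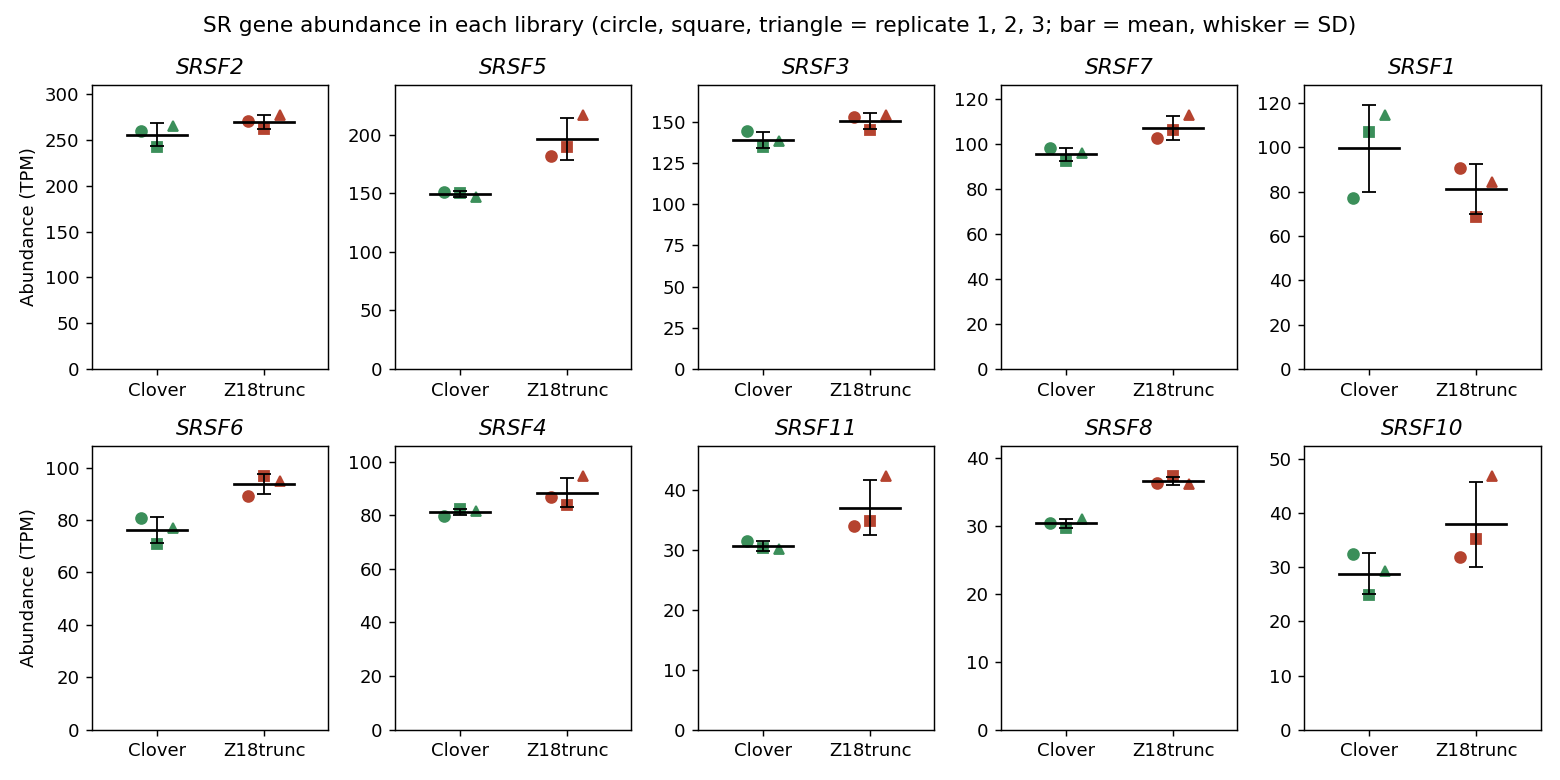
Abundance in TPM (vertical axes, from 0) of each SR gene in the 3 Clover and 3 Z18trunc libraries, with genes ordered by mean level. Symbols are libraries, horizontal bars group means and whiskers SDs (n = 3). All Z18trunc points lie above all Clover points for SRSF3, SRSF4, SRSF5, SRSF6, SRSF7, SRSF8 and SRSF11, and SRSF1 has its higher mean in Clover.

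SRSF1, SRSF4, SRSF5 and SRSF6 carry a pair of RNA recognition motifs. SRSF5 (hg38, chromosome 14, 69767142 to 69772005, plus strand), also called HRS and first described as an insulin-induced gene, was at 151, 151 and 147 TPM in Clover replicates 1 to 3 and at 182, 190 and 217 TPM in Z18trunc replicates 1 to 3. The Clover libraries lay within 5 TPM of one another and the Z18trunc libraries were all higher, the third most. The means were 150 ± 2.36 and 196 ± 18.1 TPM (SD, n = 3 each), which gave a log2 change of 0.39 (adjusted p = 0.0773 by limma, SE 0.09). After quantile normalization the change was 0.37 (limma adjusted p = 0.111). SRSF5 was the 1 member that passed under any setting tried, at an adjusted p of 0.0488 when only genes with a mean of at least 5 TPM were tested, a setting that called 4.75% of 9973 genes.

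SRSF6 (chromosome 20, 43457896 to 43464243, plus strand), a close relative of SRSF4 and SRSF5, was at 80.6, 70.8 and 76.9 TPM in Clover and at 89.3, 96.7 and 94.9 TPM in Z18trunc. The lowest Z18trunc library stood clear of the highest Clover library. The log2 change was 0.30 (adjusted p = 0.0851 by limma, SE 0.08), and 0.24 after quantile normalization.

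SRSF4 (chromosome 1, 29147745 to 29181900, minus strand), a large SR protein with a long RS domain, was at 79.8, 82.2 and 81.7 TPM in Clover and at 86.9, 83.9 and 94.6 TPM in Z18trunc. The closest libraries of the groups were 82.2 and 83.9 TPM, and the log2 change of 0.12 (adjusted p = 0.328 by limma, SE 0.07) was close to that of the median gene. After quantile normalization the change was 0.06 and the groups overlapped.

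SRSF1 (chromosome 17, 58000919 to 58007346, minus strand), the prototype SR protein and a known oncogene product, was at 77.3, 107 and 114 TPM in Clover and at 90.6, 68.7 and 84.4 TPM in Z18trunc. Clover replicate 1 lay among the Z18trunc libraries and the other two Clover libraries above them. The means were 99.5 ± 19.6 and 81.2 ± 11.3 TPM (SD, n = 3 each), which gave a log2 change of -0.28 (adjusted p = 0.332 by limma, SE 0.17) with a 95% interval from -0.69 to 0.13. Without Clover replicate 1 the change was -0.45, which passed an unadjusted p of 0.05 but not the adjustment (limma adjusted p = 0.118). Without Clover replicate 3 the change was -0.17 (limma adjusted p = 0.601) and without Z18trunc replicate 2 it was -0.16 (limma adjusted p = 0.616). SRSF1 and SRSF10 were the members with the widest spread between libraries.

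SRSF2, SRSF3, SRSF7, SRSF8, SRSF10 and SRSF11 carry a single RNA recognition motif. SRSF2 (chromosome 17, 76734115 to 76737411, minus strand), which stays in the nucleus and is recurrently mutated in myeloid neoplasms, was at 260, 242 and 266 TPM in Clover and at 271, 262 and 277 TPM in Z18trunc. The groups overlapped, and the log2 change was 0.08 (adjusted p = 0.523 by limma, SE 0.07). SRSF2 shares 847 bp with MFSD11 on the opposite strand, which was at 26.3 to 34.3 TPM. The libraries were stranded, but how strand was used for the gene tables is not given in the sources used here.

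SRSF3 (chromosome 6, 36594313 to 36605600, plus strand), the smallest SR protein, which also couples splicing to mRNA export, was at 145, 135 and 139 TPM in Clover and at 153, 145 and 154 TPM in Z18trunc. The closest libraries of the groups, 144.6 and 145.1 TPM, were nearly equal, and the log2 change was 0.11 (adjusted p = 0.331 by limma, SE 0.07). SRSF7 (chromosome 2, 38743599 to 38751494, minus strand), which has a zinc knuckle beside its RNA recognition motif, was at 97.9, 92.2 and 95.9 TPM in Clover and at 102, 106 and 113 TPM in Z18trunc. Its groups did not overlap, and the log2 change was 0.16 (adjusted p = 0.191 by limma, SE 0.07).

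SRSF8 (chromosome 11, 95066877 to 95071224, plus strand), a relative of SRSF2 whose canonical transcript has 1 exon, was at 30.4, 29.7 and 31.0 TPM in Clover and at 36.3, 37.3 and 36.1 TPM in Z18trunc. Each group was tight and the gap between them was several times the spread. The means were 30.4 ± 0.653 and 36.6 ± 0.614 TPM (SD, n = 3 each), which gave a log2 change of 0.26 (adjusted p = 0.0832 by limma, SE 0.06). The change was 0.16 after quantile normalization, with a limma adjusted p of 0.181.

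SRSF10 (chromosome 1, 23964347 to 23980327, minus strand), which represses splicing when dephosphorylated in mitosis or heat shock, was at 32.4, 24.8 and 29.2 TPM in Clover and at 31.8, 35.3 and 46.8 TPM in Z18trunc. Z18trunc replicate 1 lay below Clover replicate 1, and Z18trunc replicate 3 was the highest by far. The log2 change of 0.38 (adjusted p = 0.186 by limma, SE 0.16) was 0.22 without Z18trunc replicate 3. SRSF11 (chromosome 1, 70205696 to 70253049, plus strand), an SR-like protein also known as p54, was at 31.6, 30.4 and 30.1 TPM in Clover and at 34.1, 34.8 and 42.4 TPM in Z18trunc. All Z18trunc libraries were higher, and the log2 change of 0.26 (adjusted p = 0.147 by limma, SE 0.10) was 0.16 without Z18trunc replicate 3.

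**Figure D2:**
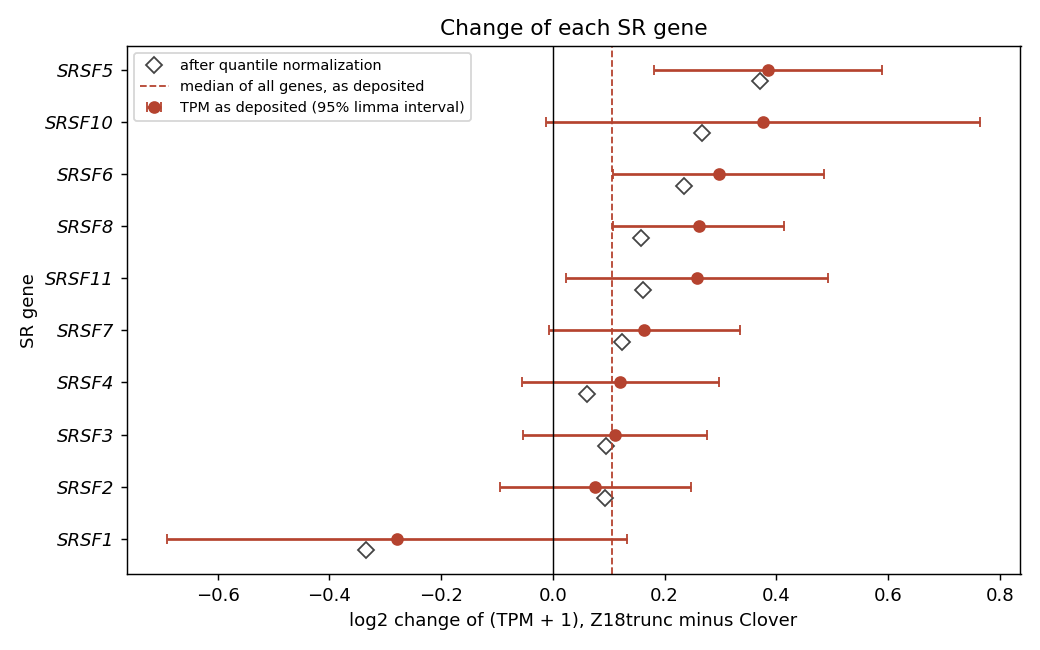
Log2 change of (TPM + 1) from Clover to Z18trunc (horizontal axis) for each SR gene. Filled points with bars are limma estimates with 95% intervals on the deposited values, open diamonds are estimates after quantile normalization, and the dashed line is the median of all genes on the deposited values (0.11). SRSF5 and SRSF10 lie furthest right, and SRSF1 alone lies left of 0.

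Of the 10 genes, 7 had their highest value in Z18trunc replicate 3, 2 in Z18trunc replicate 2 and SRSF1 in Clover replicate 3. The share of all genes highest in each library was not counted, so this may not be particular to the SR genes. Over the 10 genes, a list without SRSF9, the summed TPM was 986, 964 and 1010.5 in Clover. In Z18trunc it was 1077, 1059 and 1160. The Z18trunc sums were all higher, with means of 987 ± 23.1 and 1099 ± 53.5 TPM (SD, n = 3 each) and a log2 ratio of 0.15, or 0.11 without Z18trunc replicate 3 and 0.09 on the deposited FPKM values. The median log2 change of all genes tested was itself 0.11 on the TPM values. SRSF9, which is outside the sum, had means of 336 TPM in Clover and 322 TPM in Z18trunc.

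The order of levels was SRSF2, SRSF5, SRSF3, SRSF7, SRSF1, SRSF6, SRSF4, SRSF11, SRSF8 and SRSF10, with means over the 6 libraries from 263 TPM to 33.4 TPM. SRSF2 was above every other member in every library. SRSF5 exceeded SRSF3 in 6 of 6 libraries, although their ranges over the libraries overlapped, and SRSF3 stood clear of SRSF7. The ranges of SRSF7 and SRSF1, of SRSF1 and SRSF6 and of SRSF6 and SRSF4 overlapped, although SRSF7 exceeded SRSF6 and SRSF4 in 6 of 6 libraries. SRSF4 stood clear of SRSF11, and SRSF11, SRSF8 and SRSF10 overlapped one another.

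Shares of the RNA summed over these 10 genes do not depend on how a library was scaled. By share, SRSF5 was at 15.3%, 15.6% and 14.5% in Clover and at 16.9%, 17.9% and 18.7% in Z18trunc. SRSF6 went from 7.71% ± 0.424 to 8.54% ± 0.520 and SRSF8 from 3.08% ± 0.0114 to 3.34% ± 0.205 (SD, n = 3 each). These 3 genes took a larger share in every Z18trunc library than in any Clover library, but narrowly for SRSF6 and SRSF8. The closest libraries, Clover replicate 1 and Z18trunc replicate 3, were at 8.173% and 8.186% for SRSF6. For SRSF8 the same libraries were at 3.087% and 3.115%. Shares add up to a fixed whole, so a lower share of one member raises the rest. The shares of the other 7 members overlapped between the groups. SRSF1 had 10.1% ± 1.94 in Clover against 7.39% ± 0.966 in Z18trunc (SD, n = 3 each), and SRSF2 had 25.9% ± 0.720 and 24.6% ± 0.636.

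Outside the list of 10, SRSF9, the remaining SR protein with a pair of RNA recognition motifs, was at 345, 334 and 331 TPM in Clover and at 325, 324 and 317 TPM in Z18trunc. It was above SRSF2 in every library and was lower in every Z18trunc library, but the log2 change was -0.06 (adjusted p = 0.556 by limma, SE 0.06) and the groups overlapped after quantile normalization. SRSF12 was listed at 0 in 5 libraries and at 0.0337 TPM in the sixth.

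The other genes of the pathway were taken from lists, in which none passed limma at an adjusted p under 0.05. Over all genes, 30.1% were higher without overlap and 25.6% were higher at an unadjusted p under 0.05, with a median log2 change of 0.11. Of a list of 9 genes, SR kinases and the SR importer TNPO3, 5 were higher without overlap and 5 passed an unadjusted p of 0.05, all higher, with a median log2 change of 0.36. SRPK2, a cytoplasmic SR kinase, was at 24.8, 21.3 and 25.1 TPM in Clover and at 33.1, 35.4 and 36.3 TPM in Z18trunc (log2 change 0.54, SE 0.09, limma adjusted p = 0.0773). DYRK1A, which phosphorylates splicing factors among other substrates, had a log2 change of 0.58 (adjusted p = 0.0773 by limma, SE 0.11). Both were named because they had the smallest p-values of the list among genes averaging at least 5 TPM. They kept their groups apart after quantile normalization, where the list's median was 0.24. On that scale 6 of 9 genes were positive, against 48.9% of all genes, and 5 were higher without overlap, against 16.8%.

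Of 32 SR-related genes, which encode other proteins with arginine- and serine-rich stretches, 14 were higher without overlap, against 30.1% of all genes, and 13 passed an unadjusted p of 0.05, all higher, against 25.6%. The median log2 change was 0.28. After quantile normalization 11 were higher and 1 lower without overlap, against 16.8% and 16.2% of all genes, with a median of 0.13. THRAP3 had means of 36.0 ± 1.24 and 49.7 ± 1.08 TPM and SON, a scaffold of nuclear speckles, 36.3 ± 2.65 and 49.2 ± 2.10 TPM (SD, n = 3 each). Of 24 hnRNP and related genes, whose proteins often oppose SR proteins at exons, 13 were higher without overlap (30.1% of all genes) and 9 passed an unadjusted p of 0.05, all higher (25.6% of all genes), with a median of 0.18. After quantile normalization 11 of the 24 were higher without overlap, against 16.8% of all genes, with a median of 0.17. HNRNPA2B1 was at 317, 297 and 299 TPM in Clover and at 440, 483 and 414 TPM in Z18trunc, a log2 change of 0.55 (adjusted p = 0.0773 by limma, SE 0.08), and HNRNPH3 had a change of 0.37.

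Of 18 genes of the U1 and U2 snRNPs and their partners, 5 were higher without overlap, a share near the 30.1% of all genes, and 3 passed an unadjusted p of 0.05, a share below the 25.6% of all genes. The median log2 change was 0.02, below that of all genes. SF3B1, which binds the branch site region, had means of 40.2 ± 3.40 and 58.7 ± 7.28 TPM (SD, n = 3 each), and FNBP4 had a change of 0.29. SNRNP70, U2AF1 and U2AF2 stood in both this list and that of SR-related genes. Of 10 nonsense-mediated decay genes, 5 were higher without overlap (30.1% of all genes) and 4 passed an unadjusted p of 0.05, all higher (25.6% of all genes), with a median of 0.24. SMG1, the kinase of UPF1, had means of 5.33 ± 1.08 and 8.30 ± 1.57 TPM (SD, n = 3 each). After quantile normalization 2 of the 10 decay genes were higher without overlap, near the 16.8% of all genes.

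**Figure D3:**
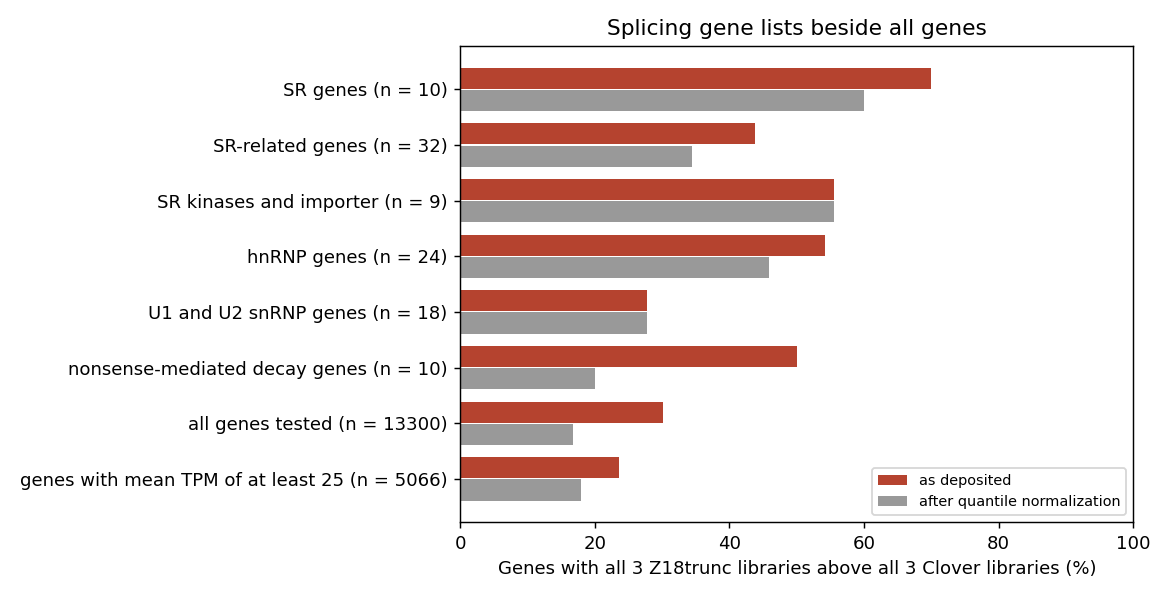
Share of genes (horizontal axis, %) for which all 3 Z18trunc libraries lay above all 3 Clover libraries, for the SR genes, 5 other lists of splicing and decay genes, all genes tested and genes with a mean of at least 25 TPM. Red bars are deposited values and grey bars values after quantile normalization; n is the number of genes tested. The SR genes have 70% on the deposited values, against 30.1% of all genes.

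Because retained introns are one way SR genes limit their own RNA, fragments at transposable element (TE) loci inside introns were used as a second readout from separate tables. These are loci wholly inside 1 gene and outside any GENCODE exon, counted on the strand of the gene. Introns that GENCODE also lists as part of a retained-intron transcript fall out by this rule. Such loci had at least 30 fragments in total for 5 members, 12 fragments for SRSF3 and none for SRSF1, SRSF2, SRSF6 and SRSF8. For SRSF1, SRSF2, SRSF6 and SRSF8 no such locus was listed on either strand. A lack of fragments and a lack of such loci cannot be told apart there. On the opposite strand, measured in the same way, the members had 0 fragments in every library except for 1 and 3 fragments in a pair of Z18trunc libraries at SRSF7, where a count of 0 allows up to 3 fragments, or 0.134 to 0.165 CPM (counts per 1000000 aligned fragments). Such limits cover counting error only.

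SRSF4 had the most intronic TE fragments, with 55, 57 and 31 in Clover and 63, 76 and 71 in Z18trunc over 40 loci. In CPM the means were 2.34 ± 0.707 and 3.45 ± 0.685 (SD, n = 3 each), the groups overlapped, and the log2 change was 0.56 (adjusted p = 0.301 by edgeR, SE 0.25). It was 0.34 without Clover replicate 3 and 0.26 under TMM scaling, which removes a shift shared by most genes. SRSF11 had 40, 26 and 11 fragments in Clover and 44, 23 and 44 in Z18trunc over 36 loci, a log2 change of 0.52 (adjusted p = 0.461 by edgeR, SE 0.32). It was 0.18 without Clover replicate 3, 0.90 without Clover replicate 1 and 0.23 under TMM scaling. In both genes Clover replicate 3 was the lowest library.

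SRSF10 had 33, 15 and 18 fragments in Clover and 22, 21 and 41 in Z18trunc, mostly at Alu copies, a log2 change of 0.35 (adjusted p = 0.670 by edgeR, SE 0.35) that became -0.00733 without Z18trunc replicate 3. SRSF7 had 26, 23 and 22 fragments in Clover and 29, 14 and 26 in Z18trunc at an AluSx1 and an AluJb copy, a log2 change of -0.06 (adjusted p = 0.951 by edgeR, SE 0.36). SRSF5 had 8, 9 and 3 fragments in Clover and 5, 1 and 7 in Z18trunc at a single MER20 copy (chromosome 14, 69770675 to 69770841), a log2 change of -0.63 (adjusted p = 0.688 by edgeR, SE 0.66). Each of these 3 genes had Z18trunc libraries on both sides of Clover libraries.

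Of the 5 members tested, 0 passed edgeR's quasi-likelihood test after adjustment, where 0.127% of 7857 genes were called higher, and 1 (SRSF4) passed an unadjusted p of 0.05, where 13.4% of all genes were higher. A positive change was seen in 3 of the 5, against 79.1% of all genes, whose median log2 change was 0.29. Summed over all genes, intronic TE fragments on the gene strand amounted to 12388 ± 1028 CPM in Clover and 15092 ± 1533 CPM in Z18trunc (SD, n = 3 for both groups). Opposite-strand fragments amounted to 1300 ± 53.6 and 1484 ± 115 CPM. Whether this general difference has a part in the SR gene values was not tested.

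**Figure D4:**
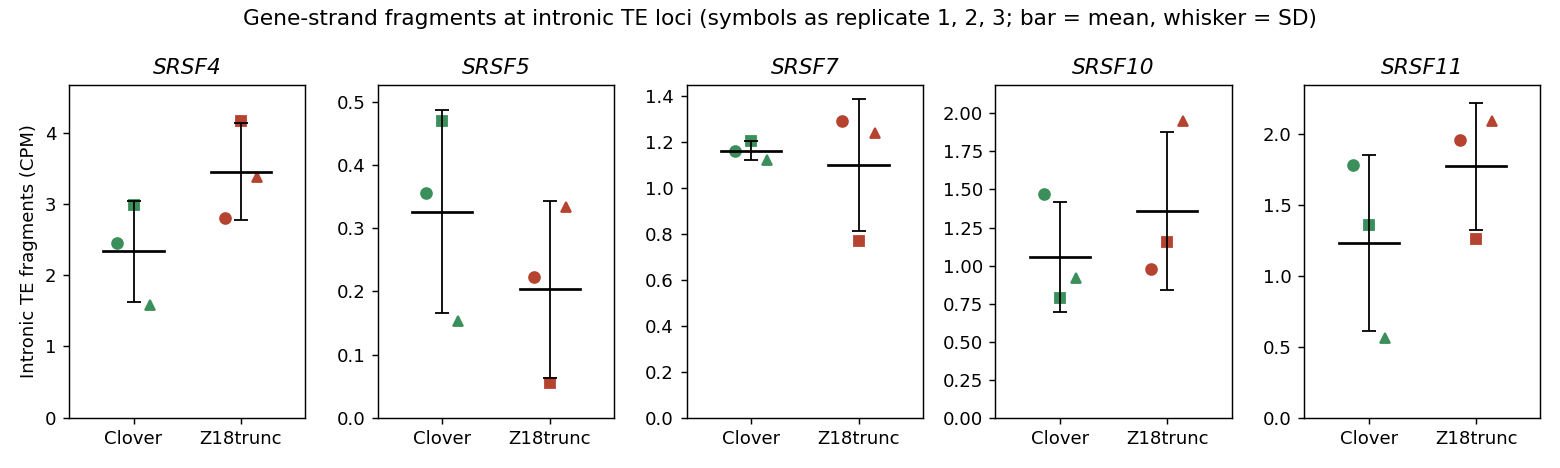
Gene-strand fragments at intronic TE loci in CPM (vertical axes, from 0) for the 5 SR genes with at least 30 fragments, in each library. Symbols are libraries, horizontal bars group means and whiskers SDs (n = 3). The groups overlap in all 5 genes, and SRSF4 has the highest level.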

How the data were processed

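Polyadenylated RNA of 6 libraries was analysed, 3 per group, with groups and replicate numbers from the sample titles. The authors mapped stranded paired-end reads to hg38, and the submitters' processing notes name cutadapt 4.6. The deposited gene tables hold TPM and FPKM for each gene and no counts, with the columns that StringTie writes. The aligner for these tables is not given in the sources used here. The authors' TE tables, made with SQuIRE, give uniquely mapped counts per locus and strand, not normalized, and an estimated count that shares multiply mapped fragments among loci.

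TPM was summed by gene ID. Genes averaging 1 TPM or more were fitted by limma 3.58.1 (R 4.3.3) on the log2(TPM + 1) scale, two-sided, with Benjamini-Hochberg adjustment over all 13300 genes and calls at 0.05. Changes on this scale understate those of low genes. Estimated counts of intronic TE loci were summed per gene (bedtools 2.31.1, GENCODE 44), rounded, and analysed by edgeR 4.0.16 (quasi-likelihood) on genes with at least 30 counts, with aligned fragments as library size. Loci that a table did not list were counted as 0. The SE of these changes was taken from the change and its F statistic.

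Alternatives were another pseudocount, other filters, quantile normalization, an intensity trend, FPKM, TMM, DESeq2 1.42.0, uniquely mapped counts, a replicate block and leaving out each library. On simulated data with 200 changed features, the limma fit recovered 85.0% of changes of 1 on the log2 scale over 13300 genes, and the edgeR fit 83.0% of changes of 2 over 7857 genes. The changes of the SR genes were smaller than these, and recovery at their size was not simulated. In uniquely mapped gene-strand counts of intronic TE loci, libraries of one group differed beyond counting noise (chi-square divided by degrees of freedom, 1.83 to 2.03). The gene tables hold no counts for such a check.

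The members and lists were chosen with earlier results of these data known. Named genes were the 10 SR genes, SRSF9, SRSF12 and ZC3H18, and of each other list the 2 genes with the smallest p among those averaging 5 TPM or more; 1 gene that this rule names is not reported here. No sets were tested.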

Additional observations from a re-analysis of the deposited data

How the results depend on the processing

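The sign of the log2 change of each SR gene was the same under all gene-level alternatives tried, but the counts moved. On FPKM, 5 SR genes were higher without overlap, against 7, and 3 were higher at an unadjusted p under 0.05 by limma, against 4. The latter count was 6 with an intensity trend and with genes of at least 5 TPM. Matching shares over all genes were not counted for these settings or for left-out libraries. Whether these counts of SR genes exceed the background there is therefore unknown. The changes of SRSF2 and SRSF3 were 0.009 and 0.045 on FPKM. SRSF5 passed the adjustment (limma adjusted p = 0.0488) with genes of at least 5 TPM, which gave 1 SR gene and 474 genes called, against 0 and 2. Calls over all genes were 60 with an intensity trend and 1 each with a pseudocount of 0.1, without a filter, after quantile normalization and with the replicate block, and 1 to 4 when leaving out 1 library, with 4 without Clover replicate 2 and 1 without Z18trunc replicate 1. SR genes lower at an unadjusted p under 0.05 numbered 0 to 1 when leaving out 1 library, the 1 being SRSF1 without Clover replicate 1. The log2 ratio of summed SR level was 0.0874 on FPKM and 0.114 to 0.180 when leaving out 1 library.

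Genes called on intronic TE fragments of the gene strand numbered 10, and 1 under TMM scaling, 1 with DESeq2, 3 with at least 10 counts and 0 with the replicate block. Leaving out 1 library gave 0 to 48, the 48 coming from leaving out Clover replicate 1, 30 from Z18trunc replicate 1, 3 from the third replicate of either group and 0 from the second of either group. On the opposite strand 1 gene was called, and 0 under TMM scaling, 0 with DESeq2, 7 with uniquely mapped counts, 0 with the replicate block and 0 to 3 when leaving out 1 library (3 without Clover replicate 1 and 0 without the second replicate of either group). Over single libraries left out, the intronic change ranged from -0.196 to 0.125 for SRSF7, reversed without Z18trunc replicate 2, and from -0.00733 to 0.675 for SRSF10, reversed without Z18trunc replicate 3. It ranged from 0.344 to 0.760 for SRSF4 and from 0.177 to 0.895 for SRSF11, and for SRSF5, which kept 30 counts in 2 of these fits, it was -0.96 without Clover replicate 3 and -0.23 without Z18trunc replicate 2. Under TMM scaling and DESeq2 the changes were 0.26 and 0.26 for SRSF4, 0.23 and 0.25 for SRSF11, 0.04 and 0.04 for SRSF10, -0.36 and -0.37 for SRSF7 and -0.92 and -0.96 for SRSF5. The cause was not tested.

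Same-numbered libraries shared no deviation (correlations of -0.0355, 0.0172 and -0.0372 across genes), so the replicate block is given here alone. No SR gene passed the adjustment with or without it. For SRSF5 the limma adjusted p was 0.126 with the block, against 0.0773. Gene-level depth is unknown, and the 95% interval of the log2 change was narrowest for SRSF8, from 0.11 to 0.41, and widest for SRSF1, from -0.69 to 0.13.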
